A study of Homo sapiens with 4 samples.

Results

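Neuropilins, plexins and class 3 semaphorins form a guidance system that was described here through 10 named genes, out of 58051 genes listed in each count file. The genes were chosen by name, and all 10 were found by their Ensembl identifiers: the neuropilins NRP1 and NRP2, the class 3 semaphorins SEMA3A, SEMA3B, SEMA3C and SEMA3F, and the plexins PLXNA1, PLXNA2, PLXNB2 and PLXND1. PolyA RNA was sequenced from 4 libraries of A549, an established human lung carcinoma line. All 4 carry A-FOS, which piggyBac transposase inserted at random and doxycycline induces, and the labels do not say whether the cells are 1 clone or a pool. The minus Dox group is 2 untreated libraries, and the plus Dox group is 2 libraries given doxycycline at 1 µg/mL, for a time that the labels leave out. A-FOS is a form of FOS that pairs with JUN proteins and holds them off DNA, and so acts against the AP-1 transcription factors. No library has doxycycline without A-FOS, so the drug and the protein cannot be told apart. Nothing in the labels ties the paired libraries to separate cultures, so p-values measure only the spread between these libraries, which may be technical.

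Class 3 semaphorins are secreted proteins that steer axons, vessels and migrating cells, and many of them repel the cells that sense them. Most bind a neuropilin, which has a short tail inside the cell and passes the signal through a plexin; the plexin's cytoplasmic part acts on small GTPases of the RAS and RAP families. Neuropilins also bind growth factors of the VEGF family beside the VEGF receptors, and in lung tissue SEMA3B and SEMA3F are known as genes of a chromosome 3p region that is often lost in lung cancer.

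The sequences just before RefSeq starts of these genes are shown because the comparison is between cells with and without an AP-1 inhibitor. These starts can differ from the gene starts given further on. The NRP2 stretch lies inside the span given for the gene, which begins at 205681990. The SEMA3B stretch lies before the gene start given as 50267558, closer to the end of the neighbouring gene GNAI2 at 50259355. RefSeq windows (build GRCh38.p14, 300 bases around a start) were found for 8 of the 10 genes, 15 windows in all; NRP1 and SEMA3A had no entry. Both strands were searched for 4 motifs that do not contain each other. The AP-1 site TGANTCA was in 0 of the 15 windows, against 7.71% of 35116 windows of all genes, and the forkhead site TGTTTAC was also in 0, against 3.42%. The cAMP response element TGACGTCA was in 1 window, of SEMA3B, against 1.85%, and the GC box GGGCGG was in 11, against 45% of all windows. Most of the 15 windows were richer in G and C than the median of all windows, which was 58.7%. Their own values ran from 36.0% to 87.3%. The part of this difference in the motif shares was not tested. Some windows of SEMA3B and of SEMA3F share bases, so the 15 are not independent. A match is a description of letters, and the absence of one says nothing of sites elsewhere. The stretches below are upstream bases outside exons, 5′ to 3′ on the gene's strand, for the 2 genes with the largest falls (NRP2, chr2:205682251-205682499, plus strand; PLXND1, chr3:129606819-129606926, minus strand), the 1 that did not pass the test (PLXNA2, chr1:208244385-208244634, minus strand) and 1 that rose (SEMA3F, chr3:50154808-50155044, plus strand). Capitals mark GC boxes on either strand, of which there were 3, 7, 3 and 12, overlapping ones counted separately.
NRP2: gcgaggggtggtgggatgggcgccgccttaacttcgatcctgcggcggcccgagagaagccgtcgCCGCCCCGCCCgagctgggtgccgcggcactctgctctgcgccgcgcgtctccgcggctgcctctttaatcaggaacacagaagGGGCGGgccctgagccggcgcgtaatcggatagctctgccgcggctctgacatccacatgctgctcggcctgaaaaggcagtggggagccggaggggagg
PLXND1: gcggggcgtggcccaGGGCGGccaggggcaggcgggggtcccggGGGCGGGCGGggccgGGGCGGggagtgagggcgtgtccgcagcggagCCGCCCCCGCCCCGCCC
PLXNA2: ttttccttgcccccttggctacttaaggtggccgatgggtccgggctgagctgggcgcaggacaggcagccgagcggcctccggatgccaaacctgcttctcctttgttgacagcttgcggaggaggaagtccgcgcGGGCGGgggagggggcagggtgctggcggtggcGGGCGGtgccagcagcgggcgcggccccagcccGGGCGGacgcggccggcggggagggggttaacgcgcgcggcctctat
SEMA3F: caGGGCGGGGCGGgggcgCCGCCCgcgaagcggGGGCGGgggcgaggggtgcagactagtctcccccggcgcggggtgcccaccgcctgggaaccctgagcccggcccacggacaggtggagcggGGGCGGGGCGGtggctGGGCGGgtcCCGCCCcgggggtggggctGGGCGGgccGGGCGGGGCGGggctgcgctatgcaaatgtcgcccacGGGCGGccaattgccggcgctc
SEMA3B has 5 windows, and the last stretch is its window with the cAMP response element, in capitals, which begins 31 bases before that start (chr3:50259976-50260225, plus strand).
SEMA3B: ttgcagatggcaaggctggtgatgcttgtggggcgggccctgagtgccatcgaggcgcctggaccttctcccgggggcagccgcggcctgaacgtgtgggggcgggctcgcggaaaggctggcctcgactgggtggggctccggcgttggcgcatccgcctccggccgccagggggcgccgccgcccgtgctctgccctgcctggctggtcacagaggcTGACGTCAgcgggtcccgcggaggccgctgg

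Total counts were between 31104964 and 40526912 per library. FOS, whose count can include A-FOS, had 1.36 and 1.52 CPM (counts scaled to library size with TMM factors) in minus Dox and 48.6 and 51.0 CPM in plus Dox. Among 9 epithelial markers the keratins KRT8 and KRT18 led in every library. The summed level was between 8183 and 8325 CPM in minus Dox and between 5772 and 5963 CPM in plus Dox. The lung markers NKX2-1, SFTPB and SFTPC were under 0.2 CPM in all 4 libraries. NAPSA, another lung marker, had 2.75 and 2.24 CPM in minus Dox and 1.96 and 2.06 CPM in plus Dox. The summed markers of endothelial cells, in which neuropilins are best known, were between 2.10 and 2.43 CPM in minus Dox and between 1.37 and 1.56 CPM in plus Dox, and 5 of 6 were under 1 CPM in all libraries. KDR, their defining VEGF receptor, had 1 count in 1 library and 0 in the other libraries. Summed leukocyte markers stayed under 1 CPM (6 of 6 genes), fibroblast markers lay between 38.4 and 48.7 CPM, most of it COL1A1, and neuronal markers between 32.0 and 32.3 CPM in minus Dox and between 18.4 and 19.6 CPM in plus Dox. The genes in the neuronal sum went both ways: SYP and MAP2 rose 2.08-fold and 1.53-fold while TUBB3, RBFOX3 and SNAP25 fell. So did those in the endothelial sum, where VWF rose from 3 and 0 to 17 and 22 counts while PECAM1 and CDH5 fell. Among the epithelial markers KRT8, KRT18, KRT19 and EPCAM fell, while CDH1 and NAPSA did not pass the test. KRT19 went from 122 and 121 to 21.0 and 21.2 CPM and EPCAM from 3.43 and 3.55 to 1.90 and 2.33 CPM. The part of these marker differences in the results was not tested. In bulk RNA, fewer cells of a kind and less RNA per cell cannot be told apart.

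With doxycycline both neuropilins and 3 of the 4 listed plexins fell, while 2 of the listed ligands fell and 2 rose. In all 7 of the 10 genes were lower, 2 higher and 1 did not pass. The test was the quasi-likelihood test of edgeR, its p-values adjusted by Benjamini and Hochberg's method across the 18046 tested genes, with a threshold of 0.05. All 10 passed the filter on low counts. Calls were common in this comparison: 56.9% of all tested genes were called, 28.4% as lower and 28.4% as higher. The median log2 fold change of the 10 genes was −0.37, against 0.00 over all tested genes, and the median size of change was 0.51 against 0.36. Over all 27 tested semaphorins and plexins with NRP1 and NRP2 the median log2 fold change was −0.09. Of these 10 were lower, 7 higher and 10 not past, so 63.0% were called. A change of at least 2-fold was called for 3 of the 10, NRP2, PLXND1 and NRP1, against 12.7% of all tested genes. The groups did not overlap for 9 of the 10, against 77.0% of all tested genes. With library size in place of TMM scaling the median of all tested genes moves from 0.00 to 0.22 on the log2 scale, and then 5 of the 10 genes were lower and 2 higher, against 59.8% of all tested genes called. DESeq2 (47.8% of all tested genes called) and edgeR with the replicate number as a block (57.7%) each gave 7 lower and 2 higher again.

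**Figure D1:**
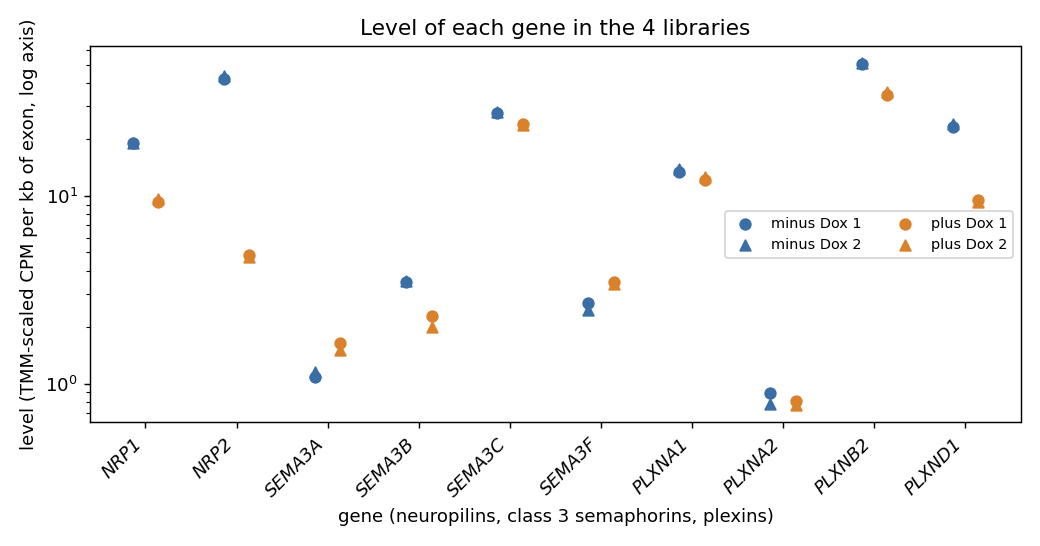
Level of each of the 10 genes in each library, as TMM-scaled CPM per kb of merged exon on a log axis; circles and triangles are libraries 1 and 2 of a group, blue minus Dox and orange plus Dox. NRP2 went from 41.8 and 43.6 to 4.87 and 4.74, the widest gap in the plot, while both groups overlapped for PLXNA2.

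Levels per length, in CPM per kb of merged exon, can be compared between genes, but their order depends on the length used. Without doxycycline the order was PLXNB2 (50.6), NRP2 (42.7), SEMA3C (27.8), PLXND1 (23.7), NRP1 (19.2), PLXNA1 (13.8), SEMA3B (3.49), SEMA3F (2.58), SEMA3A (1.12) and PLXNA2 (0.838). No pair of neighbours in that order overlapped between libraries. Merged exons span 13896 bases for NRP2 and 7257 for PLXNB2, against longest transcripts of 6662 and 6383 bases. At 594 and 367 CPM in minus Dox, NRP2 would thus stand above PLXNB2 by longest transcript. The places and percentiles below also rest on merged exons. With doxycycline NRP2 moved from place 2 to place 6, at 4.81 CPM per kb, and PLXNA1 from place 6 to place 3, at 12.4 CPM per kb. NRP1 and PLXND1 were then neighbours at 9.46 and 9.41 CPM per kb, and their libraries overlapped. Among 17974 tested genes with a known length, NRP2 went from the 94.2 to the 57.6 percentile of level. PLXNB2, at percentiles 95.3 and 93.8, and SEMA3C, at 90.3 and 89.6, stayed among the high genes in both groups, and PLXNA2 was lowest in both, at 28.0 and 26.9.

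The neuropilins are the ligand-binding receptors. NRP2 (ENSG00000118257, chromosome 2, 205681990 to 205798133 in hg38, plus strand) binds SEMA3C and SEMA3F and the lymphatic growth factor VEGFC. Its level was 582 and 606 CPM without doxycycline and 67.7 and 65.9 CPM with it. Every plus Dox value lay far below every minus Dox value. NRP2 thus went from 594 ± 17.6 to 66.8 ± 1.25 CPM (SD, n = 2), 8.89-fold lower (log2 fold change −3.15, SE 0.04, edgeR adjusted p = 5.38e-36). The size of this change was at the 99.0 percentile of all tested genes. An antisense gene, AC007362.1, covers 1.06% of the exon bases of NRP2 and had at most 0.400 CPM in any library, and whether the counting used the strand of the reads was not given in the sources used here.

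NRP1 (ENSG00000099250, chromosome 10, 33177492 to 33336262, minus strand) is the receptor of SEMA3A and of the longer VEGFA forms. It had 222 and 221 CPM without and 107 and 111 CPM with doxycycline. The groups did not overlap, and the gene was 2.03-fold lower (log2 fold change −1.02, SE 0.04, edgeR adjusted p = 3.07e-21). AL121748.2, opposite 4.87% of its exon bases, had at most 3 counts in a library.

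NRP2 went from the larger to the smaller share of the neuropilins. Per length it made up 68.5% and 69.5% of the neuropilin level without and 34.4% and 33.0% with doxycycline, a difference of −35.3 percentage points between group means. With the longest transcript as the length the shares were 69.8% and 70.8%, then 35.8% and 34.4%. The two-sided exact permutation p was 0.333, which is the smallest that this permutation test can give with 2 against 2 libraries, so it cannot pass 0.05 here. Summed over both genes, the neuropilin level went from 61.1 and 62.8 to 14.2 and 14.4 CPM per kb.

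**Figure D2:**
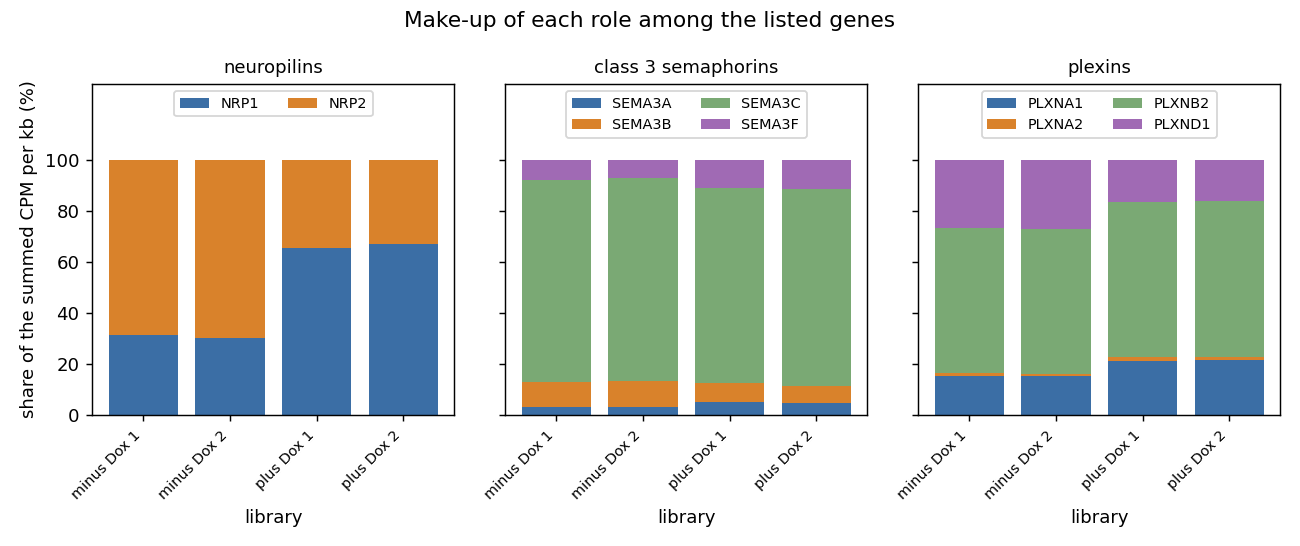
Share of each listed gene in the summed CPM per kb of its role, in percent, for each library; every bar adds up to 100. The NRP2 part shrank from a mean of 69.0% to 33.7% and the PLXND1 part from 26.7% to 16.3%, while SEMA3C held 79.5% and 77.0% of the listed class 3 semaphorins.

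The plexins are the signalling receptors. PLXND1 (ENSG00000004399, chromosome 3, 129555175 to 129606818, minus strand), best known in vessels as the receptor of SEMA3E, had 225 and 237 CPM in minus Dox and 92.3 and 90.9 CPM in plus Dox. The groups lay well apart, and the gene was 2.52-fold lower (log2 fold change −1.33, SE 0.04, edgeR adjusted p = 2.37e-24). PLXNB2 (ENSG00000196576, chromosome 22, 50274979 to 50307627, minus strand), a receptor of class 4 semaphorins that works without neuropilins, had 364 and 371 CPM against 251 and 259 CPM. It was 1.44-fold lower without overlap (log2 fold change −0.53, SE 0.04, edgeR adjusted p = 1.63e-14). Per kb of merged exon, though not by longest transcript in minus Dox, it stayed the most abundant of the 10.

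The A-type plexins are the usual partners of neuropilins. PLXNA1 (ENSG00000114554, chromosome 3, 126988594 to 127037392, plus strand) had 148 and 153 CPM in minus Dox and 133 and 139 CPM in plus Dox. Its fall was small, 1.11-fold (log2 fold change −0.15, SE 0.04, edgeR adjusted p = 0.00384). The call was lost without plus Dox replicate 1 (−0.12, edgeR adjusted p = 0.158), and with library size only the gene lay at 0.07 (edgeR adjusted p = 0.181). PLXNA2 (ENSG00000076356, chromosome 1, 208022242 to 208244320, minus strand) had 12.3 and 10.8 CPM without and 11.1 and 10.6 CPM with doxycycline. The groups overlapped and it did not pass (log2 fold change −0.09, SE 0.11, edgeR adjusted p = 0.517). Over the 4 listed plexins the summed level went from 87.8 and 90.1 to 57.1 and 58.5 CPM per kb, and the PLXNA1 share of it from 15.5% to 21.5%.

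The semaphorins are the ligands. SEMA3C (ENSG00000075223, chromosome 7, 80742538 to 80922359, minus strand), which can bind either neuropilin, was the main one in every library, with 174 and 175 CPM in minus Dox and 151 and 149 CPM in plus Dox. It was 1.16-fold lower without overlap (log2 fold change −0.21, SE 0.04, edgeR adjusted p = 3.54e-05), but with library size only, where the median of all tested genes is 0.22, it lay at 0.00 (edgeR adjusted p = 0.969).

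SEMA3B (ENSG00000012171, chromosome 3, 50267558 to 50277546, plus strand) had 20.1 and 20.2 CPM without doxycycline and 13.2 and 11.6 CPM with it. Both plus Dox values lay below the minus Dox pair, 1.62-fold on the fitted scale (log2 fold change −0.70, SE 0.09, edgeR adjusted p = 4.58e-08). SEMA3F (ENSG00000001617, chromosome 3, 50155045 to 50189075, plus strand), a ligand that prefers NRP2, went the other way, from 12.9 and 12.0 to 16.8 and 16.4 CPM. It was 1.34-fold higher without overlap (log2 fold change 0.42, SE 0.09, edgeR adjusted p = 2.79e-04). SEMA3F-AS1, opposite 2.28% of the SEMA3F exon bases, had 1.21 and 0.480 CPM in minus Dox and 0.483 and 0.746 CPM in plus Dox. SEMA3A (ENSG00000075213, chromosome 7, 83955777 to 84492724, minus strand), the ligand that makes growth cones collapse through NRP1, had 10.2 and 10.8 CPM in minus Dox and 15.5 and 14.3 CPM in plus Dox. It rose 1.41-fold (log2 fold change 0.50, SE 0.10, edgeR adjusted p = 6.99e-05), again without overlap, on 346 to 544 counts per library.

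As a sum the 4 listed ligands stood at 35.0 and 35.0 CPM per kb without and 31.6 and 30.7 CPM per kb with doxycycline. The sums of the neuropilins and plexins stand beside this at ratios of plus Dox to minus Dox of 0.230 and 0.650, against 0.890 for the ligands.

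SEMA3F and SEMA3B lie on the same strand of chromosome 3 with 78482 bases between them. The tested protein-coding gene between them was GNAI2, a G protein subunit that inhibits adenylyl cyclase, which rose from 110.0 and 112 to 143 and 143 CPM (edgeR adjusted p = 5.12e-09). So along this interval SEMA3F and GNAI2 were higher and SEMA3B lower. Across all 10 genes, the nearest tested protein-coding genes on each side came to 19 distinct genes outside the list. Of these 5 were higher, 8 lower and 6 not past, against 28.4% of all tested genes called in each direction. PARD3, a cell polarity gene beside NRP1, fell from 332 and 350.4 to 127 and 122 CPM, and the integrin gene ITGB1 on the other side of NRP1 fell by 0.47 on the log2 scale. Of the NRP2 neighbours, PARD3B did not pass (14.3 and 14.4 against 15.5 and 14.4 CPM) and INO80D rose by 0.46 on the log2 scale. ELAPOR2, the next tested gene on the other side of SEMA3A and 2384182 bases away, had 3 counts in both minus Dox libraries together and 66 in both plus Dox libraries, a ratio of 22.8 (95% exact interval 7.48 to 113, counting error only). CD36 beside SEMA3C and CAMK1G beside PLXNA2 did not pass at log2 fold changes of 1.01 and −1.38, on 7 to 19 and 5 to 15 counts per library.

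Of 25 other semaphorins, plexins and relatives 19 could be tested, and 7 were higher, 3 lower and 9 not past, with a median log2 fold change of 0.14. The share called was 52.6%, against 56.9% of all tested genes. With library size only 12 were higher and 2 lower, and over all tested genes 7865 were higher and 2925 lower. The largest rise was in a class 3 ligand: SEMA3G, known from vessels and a ligand of NRP2, had 34 and 16 counts without and 244 and 247 counts with doxycycline, or 1.01 and 0.427 against 6.93 and 7.37 CPM. Its log2 fold change was 3.34 (SE 0.23, edgeR adjusted p = 7.57e-15), 4.04 without minus Dox replicate 1 and 2.82 without minus Dox replicate 2. SEMA3E, the PLXND1 ligand and the nearest tested neighbour of SEMA3A, rose from 8.07 and 7.36 to 11.9 and 14.1 CPM (log2 fold change 0.76, SE 0.12). SEMA3D had at most 4 counts in a library.

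With these included, the 7 class 3 semaphorins summed to 36.2 and 36.0 CPM per kb in minus Dox and 34.4 and 33.9 CPM per kb in plus Dox. The SEMA3G share rose from 0.555% and 0.237% to 4.02% and 4.34%, and that of SEMA3E from 2.65% and 2.43% to 4.12% and 4.95%. SEMA3C held between 76.7% and 77.5% in minus Dox and 70.2% in each plus Dox library.

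**Figure D3:**
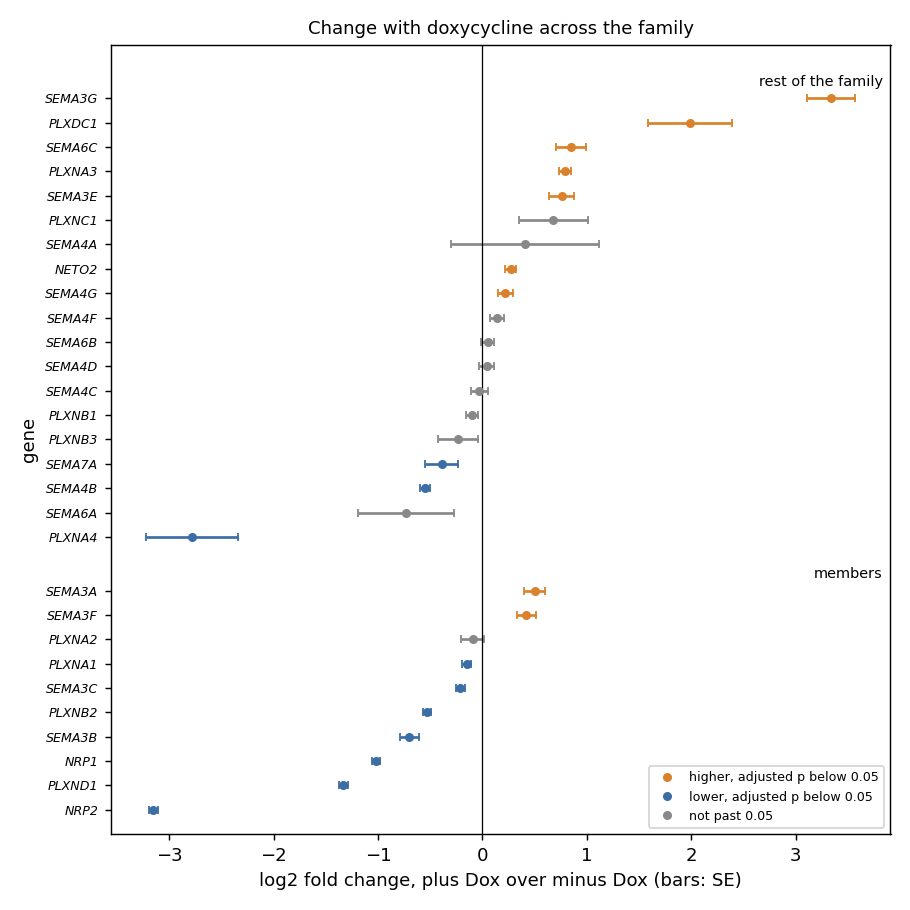
Fitted log2 fold change, plus Dox over minus Dox, with its SE, for the 10 genes and the 19 tested relatives; orange is higher, blue lower and grey not past an adjusted p of 0.05. NRP2 at −3.15 and SEMA3G at 3.34 mark the ends of the axis.

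Among the other plexins PLXNA3, an A-type partner of neuropilins, rose from 36.7 and 37.8 to 62.6 and 66.0 CPM (log2 fold change 0.79, SE 0.06, edgeR adjusted p = 8.02e-14). PLXNA4 fell from 46 and 63 counts to 8 and 7 counts, a log2 fold change of −2.78 (SE 0.44). So the A-type plexins moved apart: PLXNA3 up, PLXNA4 down from a low level, PLXNA1 slightly down and PLXNA2 not past. PLXNB1, the SEMA4D receptor, had a log2 fold change of −0.10, PLXNB3 of −0.23 and PLXNC1, the SEMA7A receptor, of 0.68, and none of them passed. PLXNB1 passed without minus Dox replicate 1 (−0.18, edgeR adjusted p = 0.0194), and PLXNC1 passed with a stricter filter (edgeR adjusted p = 0.0466) and with library size only (0.89, edgeR adjusted p = 0.0175). Over all 9 plexins the level was 95.9 and 98.9 CPM per kb without and 67.2 and 69.1 CPM per kb with doxycycline, and PLXNA3 went from 3.27% and 3.26% to 7.96% and 8.16% of it.

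Of the 10 tested membrane-bound semaphorins 4 passed, against 56.9% of all tested genes. SEMA4B, the most abundant of them in CPM, fell from 93.4 and 103 to 66.2 and 67.9 CPM (log2 fold change −0.55, SE 0.05). SEMA6C rose by 0.85 and SEMA4G by 0.22 on the log2 scale; 27.4% of the exon bases of SEMA4G lie opposite other genes, which leaves its count uncertain, and its call was lost without plus Dox replicate 1 (log2 fold change 0.17). SEMA7A, the anchored form, fell by 0.39 on the log2 scale with an edgeR adjusted p of 0.0347, and missed the threshold in each of the 4 fits that left out a library (0.0619 to 0.122, at log2 fold changes from −0.40 to −0.37), with DESeq2 (0.158) and with library size only (−0.17, 0.370). SEMA4A, SEMA4C, SEMA4D, SEMA4F, SEMA6A and SEMA6B did not pass, with log2 fold changes of 0.41, −0.03, 0.04, 0.14, −0.73 and 0.05. With library size only SEMA4C, SEMA4D, SEMA4F and SEMA6B passed as higher (0.19, 0.26, 0.35 and 0.27). SEMA4A rested on 1 and 14 counts without and 8 and 11 counts with doxycycline. Of the relatives by domain, PLXDC1 rose from 0.385 and 0.347 to 1.36 and 1.55 CPM and NETO2 rose by 0.27 on the log2 scale.

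Neuropilins and plexins work with other receptors, and neuropilins bind other ligands. Of 16 such genes 12 could be tested, and 7 were lower, 3 higher and 2 not past, with a median log2 fold change of −0.44. The share called was 83.3%, against 56.9% of all tested genes. EGFR, the receptor of epidermal growth factor, went from 621 and 631 to 307 and 293 CPM, and MET, the receptor of hepatocyte growth factor, from 331 and 311 to 192 and 188 CPM. The adhesion molecules L1CAM and NRCAM, which join neuropilins in semaphorin receptors, fell by 0.97 and 0.70 on the log2 scale. ITGB1, the NRP1 neighbour above, is also among the 7 lower genes, at a log2 fold change of −0.47. ERBB2, a PLXNB partner named after its values were seen, did not pass (0.01, edgeR adjusted p = 0.932; 0.22 and past with library size only).

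The VEGF-type ligands moved apart. VEGFC, which binds NRP2, fell from 16.1 and 15.8 to 6.19 and 6.09 CPM (log2 fold change −1.37, SE 0.11). Its receptor FLT4 went from 6.18 and 9.12 to 16.3 and 19.2 CPM (log2 fold change 1.21, SE 0.12, edgeR adjusted p = 1.44e-10). PGF, placental growth factor, rose from 2.51 and 2.29 to 11.4 and 12.9 CPM (log2 fold change 2.34, SE 0.14, edgeR adjusted p = 2.86e-16). VEGFB fell from 54.6 and 61.3 to 44.3 and 43.3 CPM (log2 fold change −0.40, SE 0.06, edgeR adjusted p = 7.17e-07). VEGFA, the main VEGF ligand, did not pass, at 46.6 and 46.3 against 42.2 and 45.9 CPM. FLT1, with KDR its receptor, had 1 count in 1 library and 0 in the other libraries; VEGFA, VEGFB and FLT1 were named after their values were seen.

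Below the receptors, 36 of 36 listed signalling and processing genes were tested, and 15 were higher, 16 lower and 5 not past, with a median log2 fold change of 0.06. The share called was 86.1%, against 56.9% of all tested genes, but the median size of change was 0.28, against 0.36. A change of at least 2-fold was called for 2 of the 36, against 12.7% of all tested genes. With library size only 19 were higher and 9 lower, beside 7865 and 2925 of all tested genes. The largest change was in MICAL2, an enzyme that oxidises and takes apart actin filaments, from 79.3 and 80.8 to 18.4 and 17.1 CPM (log2 fold change −2.17, SE 0.06, edgeR adjusted p = 1.73e-25). The collapsin response mediators DPYSL2 and DPYSL3, which carry the SEMA3A signal to microtubules and actin, went from 368 and 366 to 192 and 186 CPM and from 107 ± 7.98 to 68.6 ± 1.36 CPM (SD, n = 2). RND3, a small GTPase of the group that binds plexins, fell by 0.73 on the log2 scale.

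RAP1A, a small GTPase on which the plexin GAP domain acts, rose from 28.0 and 27.3 to 43.0 and 42.4 CPM (log2 fold change 0.63, SE 0.07). SH3BP1, a GTPase-activating protein that binds PLXND1, rose by 1.24 on the log2 scale, but 35.7% of its exon bases are shared with another gene on its strand, which leaves its count uncertain. The processing enzyme FURIN, which cuts class 3 semaphorins, and GIPC1, which binds the neuropilin tail, were named after their values were seen. FURIN had 231 and 251 CPM against 213 and 212 CPM (log2 fold change −0.19, and 0.03 with library size only), and GIPC1 198 and 206 CPM against 166 and 171 CPM (−0.27, and −0.05 with library size only).

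**Figure D4:**
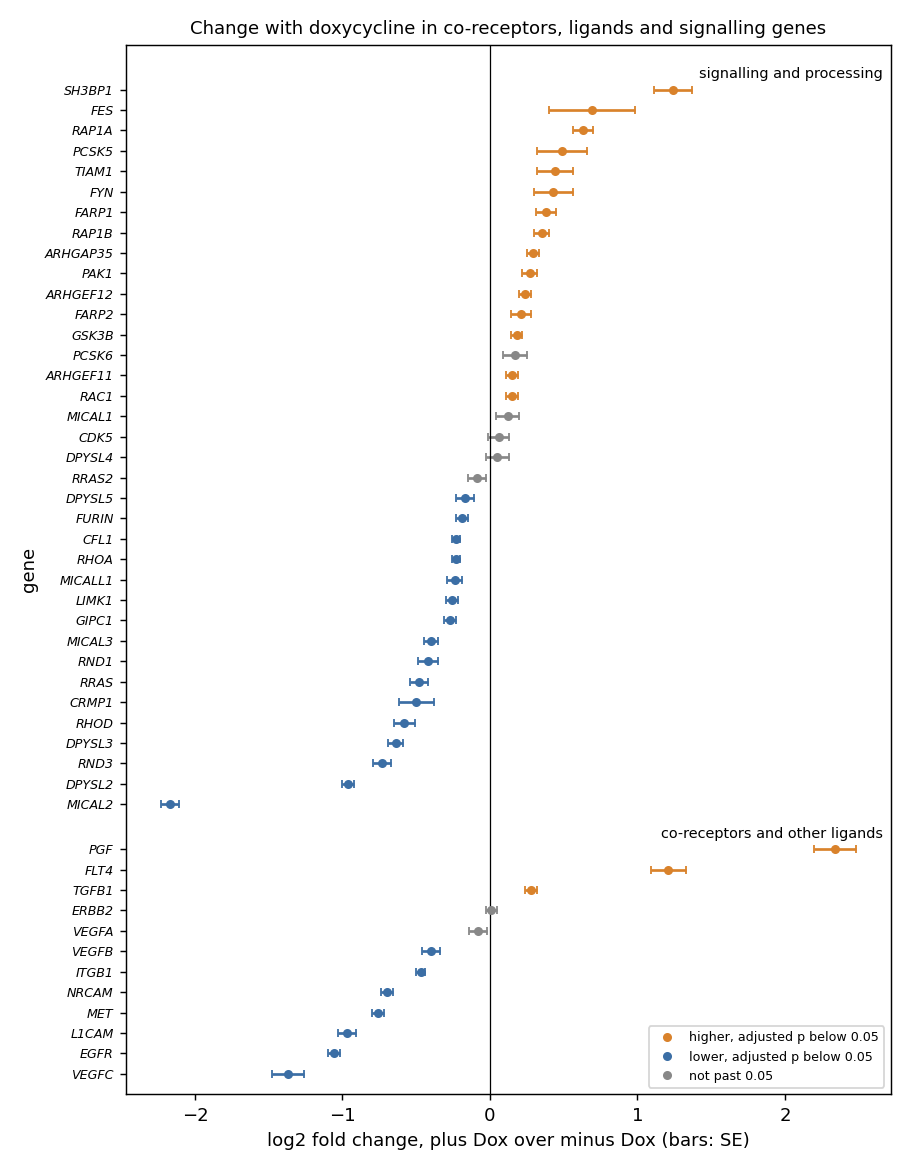
Fitted log2 fold change, plus Dox over minus Dox, with its SE, for 12 tested co-receptors and other ligands and 36 signalling and processing genes; orange is higher, blue lower and grey not past an adjusted p of 0.05. The signalling genes run from MICAL2 at −2.17 to SH3BP1 at 1.24, and the other ligands run from VEGFC at −1.37 to PGF at 2.34.

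The tested protein-coding genes nearest to each neuropilin were sought by the Euclidean distance between log2 CPM per kb (prior count 2) over the 4 libraries, among 13964 genes. NRP1 was nearest to FBLIM1 (distance 0.0626), a filamin-binding adhesion protein with 19.2 and 9.51 CPM per kb in minus and plus Dox, and then to PTGR1 (0.116) and PINK1 (0.186). NRP2 was nearest to PLAU, the urokinase gene, at a distance of 0.425, with 51.4 and 5.26 CPM per kb, and then to MLPH (0.636) and RSPO3 (0.752). The counts of PLAU and PINK1 are uncertain, since other genes lie opposite 31.1% and 39.4% of their exon bases. The 4 libraries amount to a difference between 2 groups, so this likeness is one of level and of fold change.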

How the data were processed

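PolyA RNA-seq of 4 A549 libraries was used, 2 per group, made with a stranded kit per the labels' protocols. Each deposited file holds the raw counts of 1 library by Ensembl gene, per the file headers and the values. The submitters' processing notes name, without roles, DRAGEN, cutadapt 4.0, STAR 2.7.10b, featureCounts 2.0.3, DESeq2 2.11.40.7 and hg38. The annotation and the strand option were not given in the sources used here, so reads of overlapping genes may be mixed. Of 58051 genes, 57447 were found in GENCODE 29, which gave places and exon lengths.

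Genes were filtered with filterByExpr, scaled by TMM (factors 0.926 to 1.08) and compared with edgeR 4.0.16 in R 4.3.3 (quasi-likelihood, two-sided, Benjamini-Hochberg). SE is the fitted log2 fold change over the root of its F. DESeq2 1.42.0, other scalings and filters, left-out libraries and a replicate block were alternatives. A count of 0 allows up to 3 counts, at most 0.0895 CPM, for counting error only. The test was tested on simulated data in which 50 genes were changed at each size, far fewer than were called here. It recovered 36.0% of 1.2-fold, 62.0% of 1.5-fold, 80.0% of 2-fold and 98.0% of 4-fold changes. The changed genes were drawn only from those above a bound on the expected count, so the shares do not cover genes with few counts. These shares need not hold for the real data, but a gene not past can still have a small change.

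The genes, lists and tests were chosen with earlier results of these data known. Named genes were the 10, every tested relative, the 6 lowest adjusted p and any 2-fold change in the co-receptor and signalling lists, flanking genes between SEMA3F and SEMA3B or changed 2-fold, and the 3 nearest to each neuropilin. Names outside this rule (PARD3B and INO80D as neighbours, VEGFA, VEGFB, FLT1, KDR, ERBB2, FURIN, GIPC1) were chosen after their values were seen.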

Additional observations from a re-analysis of the deposited data

How the results depend on the processing

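The 10 genes had 100 values under 10 alternatives in scaling, filter, tool, left-out library and pairing, and 97 kept their side of the threshold, with a called direction kept in each. PLXNA2, which did not pass in any of them, ran from −0.19 to 0.13. The exceptions were SEMA3C (0.00) and PLXNA1 (0.07) with library size only, where neither passed, and PLXNA1 without plus Dox replicate 1, where it lost its call and 6 genes were lower. The log2 fold change of NRP2 ran from −3.19 to −2.94, that of PLXND1 from −1.38 to −1.12 and that of NRP1 from −1.05 to −0.81. With library size only the median over all genes stood at 0.22, and 7865 genes were higher and 2925 lower, against 5133 and 5132 with TMM. In that setting 12 relatives were higher, 9 signalling genes were lower, and SEMA4C (0.19), which then passed, and DPYSL5 (0.05) and FURIN (0.03), which lost their calls, turned from below to above 0. PLXNB1, VEGFA and RRAS2 also turned (0.11, 0.14 and 0.13) but passed in neither setting. Of 678 values of the other listed genes and FOS, 634 kept their side of the threshold, 26 lost a call and 15 gained one in the same direction, and the remaining 3 are SEMA4C, DPYSL5 and FURIN above. Signs of values that passed in neither setting were not counted. Without 1 library, DPYSL5, FES, PCSK5, FYN, FARP2 and ARHGEF11 lost their calls in at least 1 fit; the cause was not tested.

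With the replicate number as a block 10414 genes were called, 10219 of them also called without it, and the 10 genes again gave 7 lower and 2 higher. The labels do not say that equal numbers mark a shared culture, and same-numbered libraries did not deviate together (Pearson's r = 0.00226 across genes, which are not independent). Replicates differed by more than sampling noise (chi-square per gene 4.10 and 2.23). Depth limits what can be said of SEMA3D, SEMA5A, SEMA6D, NETO1, KDR, FLT1 and CHL1, with at most 4 counts in a library.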
